A study of Mus musculus with 8 samples.

Results

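SLIT proteins are secreted ligands and ROBO proteins are their transmembrane receptors. The genes examined were Slit1, Slit2, Slit3, Robo1 and Robo2, taken by symbol, which are 5 of the 23420 genes in the deposited count tables. RNA came from mouse uterine stromal cells labelled day 3, with 4 libraries of the genotype label Erbb3f/f and 4 of the label Erbb3d/d. By mouse convention f stands for floxed, an exon set between loxP sites, and d for the form left once Cre has cut it out. The labels name no Cre line or promoter, no event from which the day is counted, no age and no number of animals per library. No group carries a further allele or treatment in the labels. Nothing in the labels says that the libraries came from separate animals, so p-values measure the spread between these libraries.

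A SLIT ligand binds the outermost immunoglobulin domain of a ROBO receptor through its leucine-rich repeats, and heparan sulfate chains stabilise the complex. The bound receptor acts through adaptor and GTPase-activating proteins on RAC1, CDC42 and RHOA, and so on the actin skeleton. The pathway is best known for repelling growing axons, and it also guides migrating cells, vessel sprouts and branching ducts. The series' title concerns the role of Erbb3, a neuregulin receptor, in stroma while uterine glands take shape.

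The members lie on 4 chromosomes of the mouse build GRCm38 (GENCODE vM21). Slit2 lies on chromosome 5 at 47983138 to 48307733 on the plus strand. Slit3 lies on chromosome 11 at 35121224 to 35708507 on the plus strand. Slit1 runs along the minus strand of chromosome 19 from 41600257 to 41743665. Robo1 (72308306 to 73046095, plus strand) and Robo2 (73891839 to 74411825, minus strand) are neighbours on chromosome 16. None of the 5 shares an exonic base with another gene in that annotation, on either strand, which matters because the libraries do not keep strand.

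Slit2 and Slit3 each carry a miR-218 hairpin in an intron, Mir218-1 at 48223942 to 48224051 on chromosome 5 and Mir218-2 at 35616816 to 35616925 on chromosome 11. The mature sequences (RefSeq, GRCm38.p6) are shown because the ligand genes host a miRNA whose known targets include Robo1 and Robo2. Capitals mark the seed, bases 2 to 8. The 5p arm is identical at both loci, while the 3p arms differ in seed.
mmu-miR-218-5p: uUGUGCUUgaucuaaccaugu
mmu-miR-218-1-3p: aAACAUGGuuccgucaagcacc
mmu-miR-218-2-3p: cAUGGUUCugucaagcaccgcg

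Matches to the 7 bases opposite the 5p seed (AAGCACA, sense strand) were sought in the longest annotated 3′ UTR of each member in GENCODE vM21. Robo1 held 1 match, Robo2 held 2, Slit2 held 2, and Slit1 and Slit3 held 0. A match was found in 13.8% of the 21007 genes with such a UTR, and in 18.5% and 38.0% of those whose 3′ UTR was about as long as that of Robo1 and of Robo2. For 3′ UTRs about as long as those of Slit2, Slit1 and Slit3, the shares were 33.5%, 11.6% and 3.19%. The receptor matches are shown with the matched bases in capitals. Those at chr16:73045332-73045355 and chr16:73895358-73895381 are followed by an A, which makes an 8mer, and the other lies at chr16:73893032-73893055.
Robo1 match: ttttttttggttttaaAAGCACAa
Robo2 first match: gattttatttggtgatAAGCACAa
Robo2 second match: tagtcacggcagacccAAGCACAg

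A match describes letters only. Libraries of polyadenylated RNA do not hold mature miRNAs, and both hairpins had 0 reads in all 8 libraries, where 3 reads would be 0.236 to 0.350 CPM (read counts scaled to the reads in genes and to edgeR's TMM factor). The level of miR-218 was therefore not measured.

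The stretch upstream of Slit2 is shown because Slit2 is the member whose genotypes did not overlap. It is 150 bases at chr5:47982988-47983137 on the plus strand (RefSeq, GRCm38.p6), ending at the base before the first GENCODE exon. Capitals mark TATAAA (1 match) and GGGCGG (3 matches), each sought on both strands, and no match overlaps another.
Slit2 upstream: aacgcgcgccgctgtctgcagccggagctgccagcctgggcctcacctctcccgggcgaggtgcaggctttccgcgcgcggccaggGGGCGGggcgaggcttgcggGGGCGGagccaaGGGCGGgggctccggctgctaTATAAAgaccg

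Promoter windows of 300 bases were matched for 4 of the 5 members, all but Slit1. TATAAA begins 28 bases before the RefSeq start of Slit2 and 11 bases before the first GENCODE exon. TATAAA occurs in 13.6% of all 32851 windows of that length, and on the sense strand between 21 and 40 bases before the start in 1.99%. GGGCGG occurs in 35.7% of windows. The Slit3 window held 6 GGGCGG and 0 TATAAA, and the windows of Robo1 and Robo2 held 0 of either. These windows follow RefSeq starts, which differ from GENCODE. In the Slit3 window, 232 bases before the RefSeq start are exonic in GENCODE. The Robo1 start used, 72663149, lies inside the GENCODE span of the gene. Of the Robo2 starts used, 75447293, 75092770 and 74411825, only the last lies within its GENCODE span.

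Reads in genes numbered 8578575 to 12854367 per library. Under the label Erbb3f/f Erbb3 had 9.64 ± 2.24 CPM, and under Erbb3d/d 13.9 ± 4.56 CPM (SD, n = 4 each), so its level was not lower under the label of deletion (edgeR adjusted p = 0.485), and every direction here follows the labels only. A count over the whole gene cannot show the loss of an exon. Stromal markers were abundant, with 14 genes summing to 14400 to 18200 CPM for Erbb3f/f and to 12200 to 16500 for Erbb3d/d. On the first principal component, which held 36.7% of the variance, the Erbb3f/f libraries enclosed Erbb3d/d replicate 2. edgeR's quasi-likelihood test called 0 of 14598 genes at an adjusted p under 0.05 (0.00%), with 1695 (11.6%) at an unadjusted p under 0.05. DESeq2 called 262 genes (1.79%). Without Erbb3d/d replicate 2, edgeR called 259 genes (1.75%).

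Receptor transcripts were more abundant than ligand transcripts. Levels between genes are given as CPM per kb of merged exon. In Erbb3f/f, Robo1 had 9.59 ± 2.88 CPM per kb, Robo2 6.31 ± 2.42, Slit3 3.14 ± 0.619, Slit2 0.484 ± 0.116 and Slit1 0.0627 ± 0.0435 (SD, n = 4 each). The ranges of Robo1 and Robo2 overlapped and those of Robo2, Slit3, Slit2 and Slit1 did not.

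In Erbb3d/d the order was the same, with Robo1 at 9.13 ± 2.10 CPM per kb, Robo2 4.94 ± 1.04, Slit3 3.42 ± 1.24, Slit2 1.0 ± 0.349 and Slit1 0.140 ± 0.0821 (SD, n = 4 each). There Robo2 and Slit3 overlapped, while Robo1 lay above Robo2 in all libraries. The merged exons of Slit2 span 25.43 kb and its principal transcript 9.96 kb, so its level depends on the length chosen. Per kb of principal transcript the order was unchanged, but Slit2 in Erbb3d/d was 2.56 ± 0.890 CPM per kb against 3.97 ± 1.43 for Slit3 (SD, n = 4 each), and these ranges overlapped, as did those of Robo1 and Robo2.

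**Figure D1:**
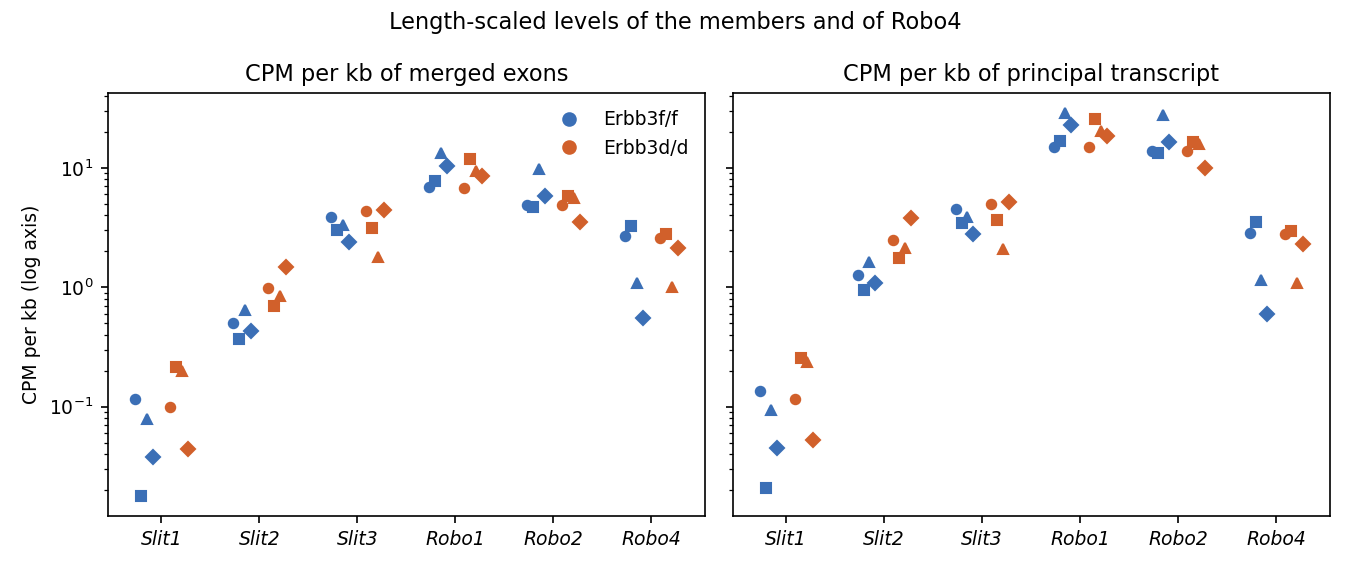
Each point is 1 library, with its level in CPM per kb on a log axis for the 5 members and Robo4, blue for Erbb3f/f and orange for Erbb3d/d, scaled by merged exons on the left and by the principal transcript on the right; point shapes are replicates 1 to 4. Robo1 and Robo2 sit highest, Slit3 and then Slit2 below them, and Slit1 lowest in both panels.

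Slit2 had the log2 fold change farthest from 0 among the 4 members tested. SLIT2 is a large secreted guidance protein that binds ROBO1 and ROBO2. Replicates 1 to 4 of Erbb3f/f held 12.7, 9.42, 16.3 and 10.9 CPM of it (130, 90, 207 and 96 reads). Those of Erbb3d/d held 24.9, 17.6, 21.4 and 38.0 CPM (253, 151, 271 and 433 reads). All 4 Erbb3d/d libraries lay above all 4 Erbb3f/f libraries, though the closest pair, Erbb3f/f replicate 3 and Erbb3d/d replicate 2, stood at 16.3 and 17.6 CPM. Of all genes tested, 2.56% had Erbb3d/d wholly above Erbb3f/f.

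The means of Slit2 were 12.3 ± 2.95 and 25.5 ± 8.86 CPM (SD, n = 4 each). The log2 fold change, Erbb3d/d over Erbb3f/f, was 1.05 (SE 0.25, 95% interval 0.49 to 1.60), a 2.06-fold difference. An exact permutation test, two-sided over 70 assignments, gave p = 0.0286, the smallest it can give. Any gene whose groups do not overlap has this p, so it adds nothing to the separation. Over all genes tested Slit2 did not pass in edgeR's quasi-likelihood test (adjusted p = 0.236), where 108 genes had a smaller p and 1.87% of genes had a log2 fold change at least as high. It passed with DESeq2 (adjusted p = 0.0117), which called 1.39% of genes higher. It also passed in edgeR without Erbb3d/d replicate 2 (log2 fold change 1.19, adjusted p = 0.0401), where 0.968% of genes were called higher, while without Erbb3d/d replicate 4 the log2 fold change was 0.79 and the adjusted p 0.549.

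**Figure D2:**
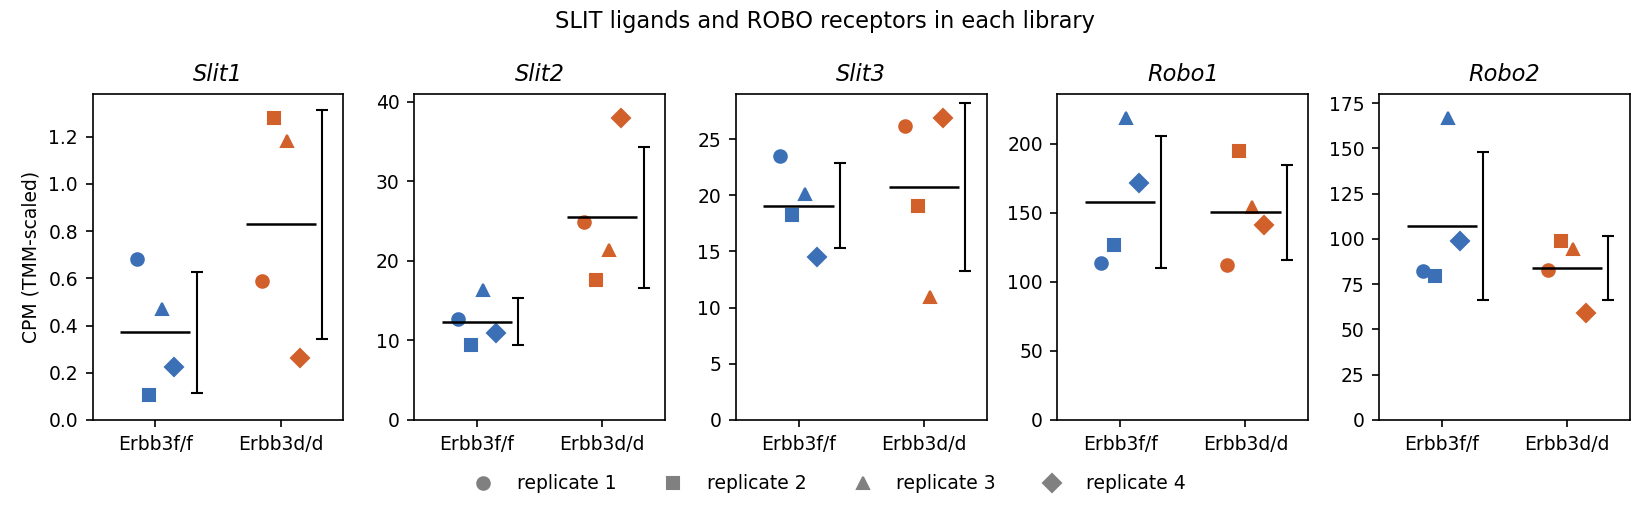
Panels show the level of each member in CPM by label, with 1 point per library (shapes are replicates 1 to 4), a horizontal line at the mean and a bar of 1 SD to each side beside it; each panel has its own axis from 0. Only the Slit2 panel has its 2 groups apart, with Erbb3f/f at 9.42 to 16.3 CPM and Erbb3d/d at 17.6 to 38.0 CPM.

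Slit3, a ligand of the same receptors, showed no such separation. It had 23.5, 18.2, 20.1 and 14.5 CPM in Erbb3f/f replicates 1 to 4 and 26.2, 19.0, 10.9 and 26.9 CPM in Erbb3d/d replicates 1 to 4. Erbb3d/d held both the lowest library, replicate 3, and the highest, replicate 4, so the groups overlapped fully. The means were 19.1 ± 3.76 and 20.8 ± 7.50 CPM (SD, n = 4 each). This gave a log2 fold change of 0.12 (SE 0.27, 95% interval -0.48 to 0.72; edgeR adjusted p = 0.895), and the exact permutation test gave p = 0.829. The interval runs from a 0.72-fold to a 1.65-fold level. The Slit2 estimate of 2.06-fold lay outside it, but the 95% interval of Slit2, from 1.40-fold to 3.04-fold, overlapped it. Whether the 2 genes differ in their change was not tested. The sign of the Slit3 estimate turned without Erbb3d/d replicate 1 (-0.01) or replicate 4 (-0.03).

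Slit1, best known as a ligand of the nervous system, was near the detection limit. Replicates 1 to 4 of Erbb3f/f held 7, 1, 6 and 2 reads of it, and those of Erbb3d/d held 6, 11, 15 and 3. It did not pass the filter on low counts and was not part of the test over all genes. The means were 0.371 ± 0.257 and 0.829 ± 0.486 CPM (SD, n = 4 each), the groups overlapped, and an exact permutation test gave p = 0.171.

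Robo1, a receptor for all 3 ligands, had the highest mean of the members, and its difference between the labels was within its spread. Its level was 114, 127, 219 and 172 CPM in Erbb3f/f replicates 1 to 4 and 112, 195, 154 and 141 CPM in Erbb3d/d replicates 1 to 4. The groups overlapped, with the highest library in Erbb3f/f and the lowest in Erbb3d/d. The means were 158 ± 47.5 and 151 ± 34.6 CPM (SD, n = 4 each). This gave a log2 fold change of -0.07 (SE 0.22, 95% interval -0.58 to 0.43; edgeR adjusted p = 0.924), and the exact permutation test gave p = 0.829. Its sign turned without Erbb3f/f replicate 3 (0.13) or Erbb3d/d replicate 1 (0.05).

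Robo2, the closest relative of Robo1, had 82.5, 79.8, 167 and 99.0 CPM in Erbb3f/f replicates 1 to 4. In Erbb3d/d replicates 1 to 4 it had 83.0, 98.6, 94.6 and 59.2 CPM. Erbb3f/f replicate 3 stood above the other 7 libraries, and Erbb3d/d replicate 4 was lowest. The means were 107 ± 41.0 and 83.9 ± 17.7 CPM (SD, n = 4 each). This gave a log2 fold change of -0.36 (SE 0.25, 95% interval -0.93 to 0.22; edgeR adjusted p = 0.615), and the exact permutation test gave p = 0.429. Without Erbb3f/f replicate 3 it was -0.06.

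Of the 4 members tested, 1 (Slit2) was higher at an unadjusted p under 0.05, against 6.64% of all genes tested. The same member was the only 1 of the 4 without overlap, against 2.56% of genes higher, 2.48% lower and 5.04% in either direction. Of the 4, 2 had a log2 fold change above 0. Their median log2 fold change was 0.02, beside -0.01 over all genes tested.

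The balance between the ligands is given as a description. Slit2 reads as a share of Slit2 plus Slit3 reads were 35.0%, 34.1%, 44.7% and 42.9% in Erbb3f/f replicates 1 to 4. They were 48.7%, 48.1%, 66.3% and 58.5% in Erbb3d/d replicates 1 to 4. Every Erbb3d/d share lay above every Erbb3f/f share, with means of 39.2 ± 5.39% for Erbb3f/f and 55.4 ± 8.69% for Erbb3d/d (SD, n = 4 each). The shares use the same Slit2 reads as above, so they are not independent of the separation seen for Slit2. The exact binomial 95% intervals of the closest libraries overlapped, 40.1% to 49.4% in Erbb3f/f replicate 3 and 42.4% to 53.8% in Erbb3d/d replicate 2, and they cover counting error only.

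For the receptors, Robo1 reads as a share of Robo1 plus Robo2 reads ran from 56.7% to 63.4% in Erbb3f/f and from 57.5% to 70.4% in Erbb3d/d. These ranges overlapped. The summed level of the 3 ligands was 25.6 to 36.8 CPM in Erbb3f/f and 33.4 to 65.2 CPM in Erbb3d/d. That of the 2 receptors was 197 to 387 and 195 to 294 CPM. Both sums overlapped between the labels.

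**Figure D3:**
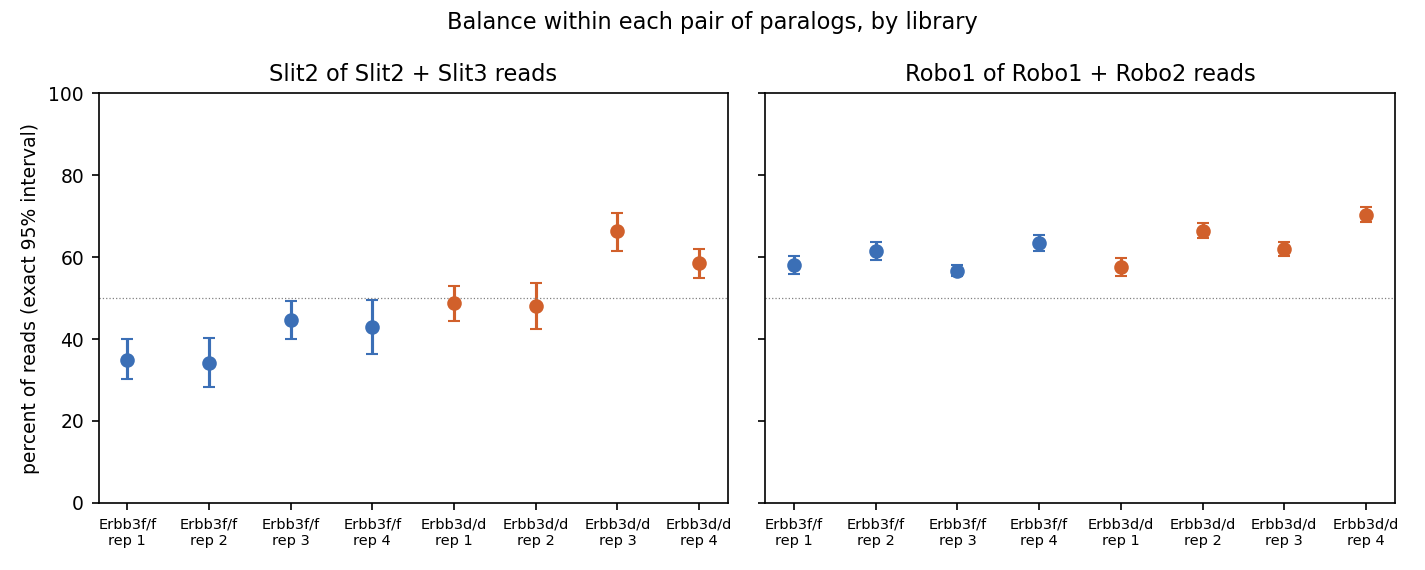
Points give, for each library, Slit2 as a percentage of Slit2 plus Slit3 reads (left) and Robo1 as a percentage of Robo1 plus Robo2 reads (right), blue for Erbb3f/f and orange for Erbb3d/d, with exact binomial 95% intervals and a dotted line at equal shares. On the left the Erbb3f/f libraries lie at 34.1% to 44.7% and the Erbb3d/d libraries at 48.1% to 66.3%, and on the right the labels overlap.

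Robo1 and Robo2 tended to be high in the same libraries. Over the 8 libraries their log2 CPM had Pearson's r of 0.73 (exact permutation p = 0.0286, adjusted over 6 member pairs 0.171) and Spearman's rho of 0.74 (exact permutation p = 0.0458, adjusted 0.275). With each genotype centred on its mean, r was 0.76. Without Erbb3f/f replicate 3 and Erbb3d/d replicate 2, the libraries farthest from the median of Robo1, r was 0.32. Leaving out the extremes of a gene narrows its range, which can itself lower r. The lower value therefore cannot show that the relation rests on those libraries. For Slit2 and Slit3 r was 0.36 and rho 0.52 (exact permutation p = 0.381 and p = 0.197, adjusted 0.513 and 0.490), and r was 0.09 without the 2 libraries farthest from the median of Slit2. The 4 pairs of a ligand with a receptor had r between -0.37 and -0.06 over all 8 libraries, with adjusted exact permutation p of 0.513 or more. For Slit2 with Robo1 and with Robo2 the sign was positive within Erbb3f/f and negative within Erbb3d/d. With 4 libraries per label these signs cannot be relied on, and whether the relation differs between the labels was not tested.

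The genes whose pattern was most like that of each member were taken by the highest Pearson correlation of log2 CPM over the 8 libraries, among 12460 genes with a mean of at least 5 CPM. This is a description, chosen from many genes. For Slit2 they were Gtf2ird2, Rsad2, an interferon-induced enzyme, and Anxa3, an annexin, each with r of 0.97, and with r of 0.96, 0.91 and 0.95 after centring by genotype. For Slit3 they were Cyp2d22 (r 0.96), Gnb4 (0.96), a G protein subunit, and Reps2 (0.95). For Robo1 they were Bcdin3d (r 0.97), Jrk (0.95) and Napsa (0.94). For Robo2 they were 4932415G12Rik (r 0.98), Zeb2 (0.96), a zinc finger repressor of mesenchymal cells, and Fam155a (0.95). No gene was on the list of more than 1 member.

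Robo4 is the ROBO receptor of endothelium. It had 14.2, 17.3, 5.74 and 2.94 CPM in Erbb3f/f replicates 1 to 4 and 13.8, 14.7, 5.36 and 11.4 CPM in Erbb3d/d replicates 1 to 4. Both labels spanned low and high libraries. Its log2 fold change was 0.17 (SE 0.52; edgeR adjusted p = 0.925). The summed level of 14 endothelial markers was 636, 653, 417 and 342 CPM in Erbb3f/f replicates 1 to 4 and 554, 714, 374 and 459 CPM in Erbb3d/d replicates 1 to 4. Within each label the libraries had the same order by Robo4 as by that sum, and no marker on the list was at 0 in all libraries. The part of endothelial content in the Robo4 levels was not tested. Robo3, the divergent receptor of commissural axons, had 0, 0, 1 and 1 reads in Erbb3f/f and 1, 1, 4 and 5 reads in Erbb3d/d, too few for the test over all genes.

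Beyond the receptors, 3 lists of genes around the pathway were read out, and edgeR called 0 of their 45 tested genes. Of all genes tested, 6.64% were higher and 11.6% differed in either direction at an unadjusted p under 0.05, and DESeq2 called 1.79%. The 15 coreceptors and heparan sulfate genes had 9 estimates above 0 and a median log2 fold change of 0.10, with 2 higher and 2 lower at an unadjusted p under 0.05. The 20 intracellular partners of ROBO had 9 estimates above 0 and a median of -0.02, with 1 higher at an unadjusted p under 0.05 and 0 lower. The 10 netrins and netrin receptors, a separate guidance family, had 3 estimates above 0 and a median of -0.29, with 1 higher and 2 lower at that threshold. DESeq2 called 0 genes of these lists. Nell1 and Nell2, other ligands reported for ROBO receptors, were below the filter on low counts.

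None of the 6 genes taken from these lists, the 3 with the smallest p in each direction, passed over the whole table. Srgap1 encodes a GTPase-activating protein that binds the ROBO1 tail and acts on CDC42. It had 41.0, 36.2, 29.4 and 23.4 CPM in Erbb3f/f replicates 1 to 4 and 50.3, 42, 41.5 and 68.3 CPM in Erbb3d/d replicates 1 to 4. The groups did not overlap, as in the 2.56% of all genes tested with Erbb3d/d wholly above Erbb3f/f, though the nearest libraries stood at 41.0 and 41.5 CPM. Its log2 fold change was 0.64 (SE 0.21; edgeR adjusted p = 0.314). The relatives Srgap2 and Srgap3 had log2 fold changes of -0.06 and -0.22.

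In Erbb3f/f and Erbb3d/d, Sdc4, a heparan sulfate carrier of the cell surface, had 195 ± 31.2 and 280 ± 55.3 CPM (SD, n = 4 each; edgeR adjusted p = 0.294). Unc5b, a netrin receptor, had 14.6 ± 1.56 and 19.1 ± 3.02 CPM (SD, n = 4 each; edgeR adjusted p = 0.395), without overlap. Of the 46 genes tested around the pathway, Robo4 included, 2 were wholly higher and 0 wholly lower, against 2.56% and 2.48% of all genes tested. Unc5c, another netrin receptor, had 26.0 ± 11.3 and 14.1 ± 3.88 CPM (SD, n = 4 each; edgeR adjusted p = 0.337). Dcc, the netrin receptor that ROBO1 can bind, had 6.03 ± 4.11 and 2.77 ± 0.575 CPM (SD, n = 4 each; edgeR adjusted p = 0.356), with 12.1 CPM in Erbb3f/f replicate 2 and 2.11 to 4.48 CPM in the other 7 libraries. Gpc1, a glypican that binds SLIT2, had 600 ± 96.3 and 450 ± 114 CPM (SD, n = 4 each; edgeR adjusted p = 0.417). The GTPases that ROBO signalling acts on had log2 fold changes of 0.00 for Rac1, 0.03 for Cdc42 and 0.03 for Rhoa (SE 0.08, 0.10 and 0.08).

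**Figure D4:**
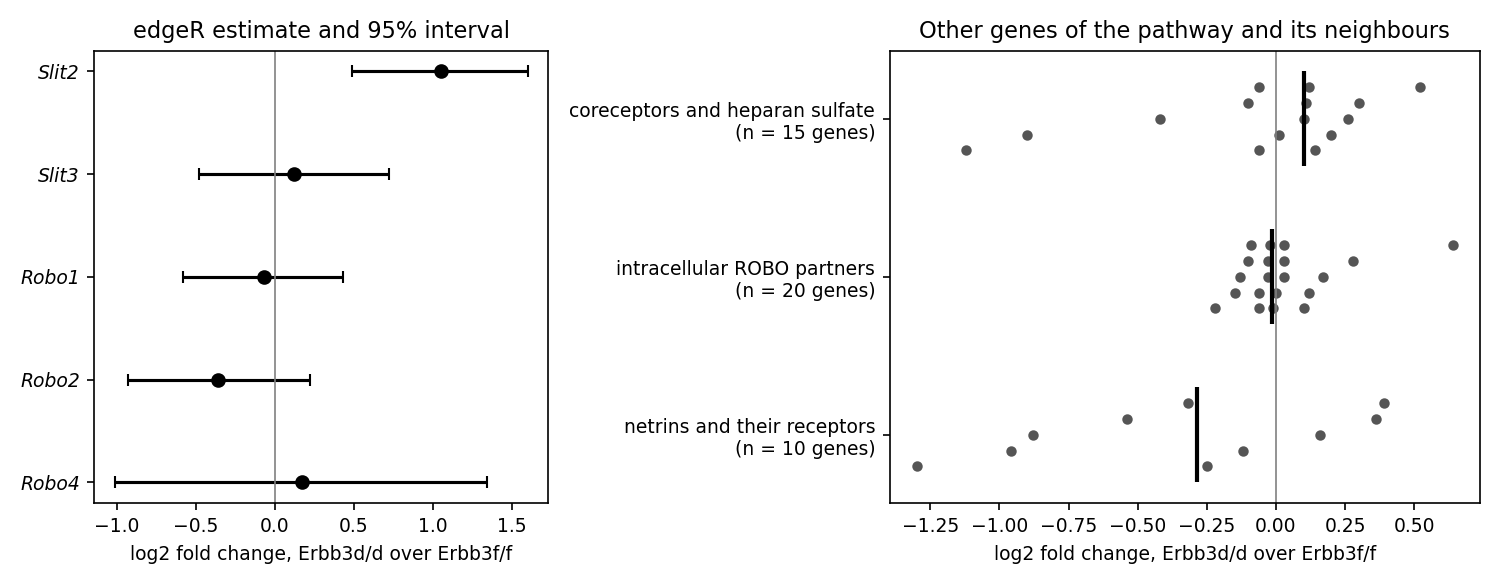
On the left, points are log2 fold changes of Erbb3d/d over Erbb3f/f for the 4 tested members and Robo4, with 95% intervals from edgeR; on the right, each point is 1 tested gene of a list around the pathway and the thick line is the list's median. The interval of Slit2 (0.49 to 1.60) lies above 0, those of Slit3, Robo1, Robo2 and Robo4 span 0, and the list medians lie at 0.10, -0.02 and -0.29.

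Markers of some other cell types leaned 1 way between the labels, and in bulk RNA fewer cells of a type and less RNA per cell cannot be told apart. Exact permutation tests of a list's mean log2 level gave p = 0.0857 for epithelial, 0.0571 for smooth muscle and 0.0857 for stromal markers. Of all 14598 genes tested, 7000 had a log2 fold change above 0. Of 20 epithelial markers, 18 had a log2 fold change above 0, and they summed to 1350 to 2280 CPM under Erbb3f/f and 2140 to 3630 under Erbb3d/d. Of 12 smooth muscle markers, 12 had a log2 fold change above 0, and the sum was 1440 to 2460 and 2670 to 5600 CPM. These sums did not overlap, but the mean log2 level, which the permutation test used, was not wholly apart between the labels. Of 14 stromal markers, 4 did. Above 0 were also 12 of 14 endothelial, 5 of 7 pericyte, 5 of 15 immune, 0 of 6 mesothelial and 3 of 3 Schwann and nerve markers tested, and edgeR called no marker of any list. Sox10, a Schwann cell factor, was at 0. No marker of these 3 lists was at 0 in all libraries. Slit2 was highest in Erbb3d/d replicate 4, which had the highest epithelial sum (3630 CPM) and the lowest stromal sum (12200 CPM). The highest smooth muscle sum was in Erbb3d/d replicate 1 (5600 CPM). Erbb3d/d replicate 3, with an epithelial sum of 3590 CPM, had 21.4 CPM of Slit2. Erbb3d/d replicate 1, with an epithelial sum of 2200 CPM, had 24.9 CPM of Slit2. Among the Erbb3f/f libraries, replicate 3 had the most Slit2 (16.3 CPM) and the lowest epithelial (1350 CPM) and smooth muscle (1440 CPM) sums. The parts of cell content and of genotype in the Slit2 levels cannot be told apart here.

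With the mean of the epithelial, smooth muscle or stromal markers as a covariate, the log2 fold change of Slit2 was 0.90 (SE 0.38), 1.04 (SE 0.41) and 0.61 (SE 0.30). None of these was called by edgeR (adjusted p = 0.999, 0.653 and 1.0). With the smooth muscle covariate the estimates of Slit3, Robo1 and Robo2 turned sign, to -0.40 (SE 0.37), 0.61 (SE 0.16) and 0.29 (SE 0.25), without a call (edgeR adjusted p = 0.801, 0.604 and 0.792). Without a covariate the SE of Slit2 was 0.25. These marker levels leaned with the label, so over 8 libraries such fits cannot tell cell content from genotype.

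**Figure D5:**
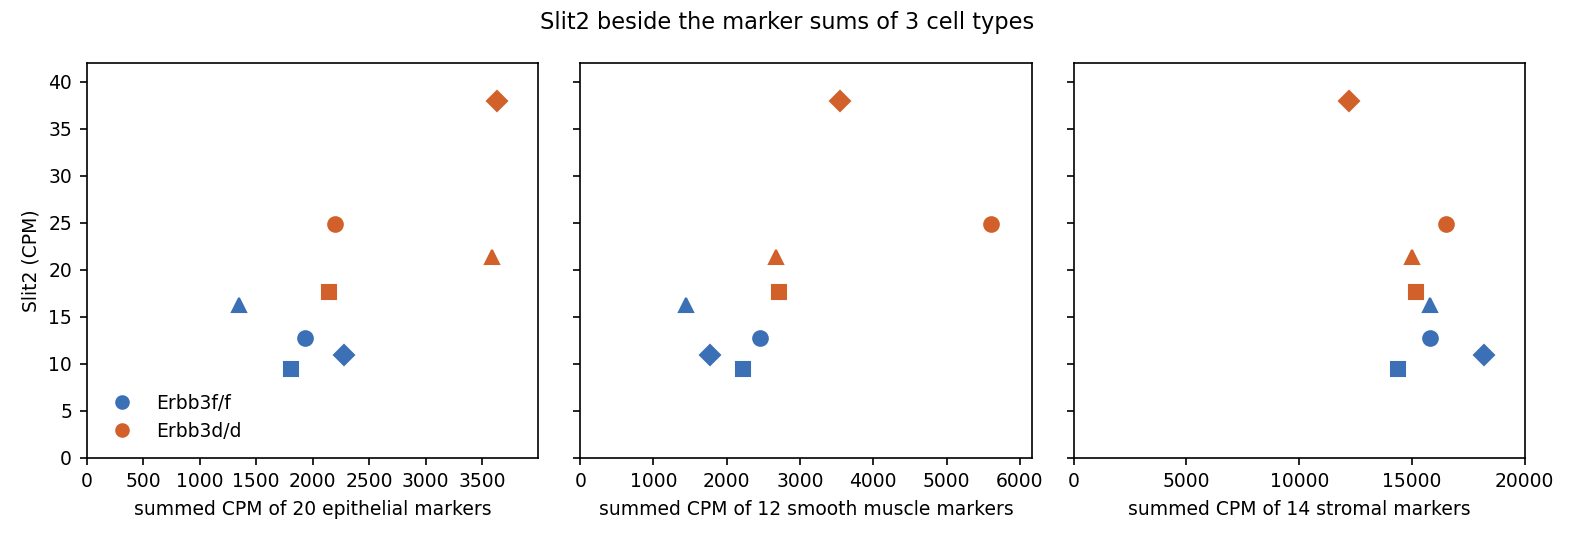
Each point is 1 library (shapes are replicates 1 to 4, blue Erbb3f/f, orange Erbb3d/d), with Slit2 in CPM on the vertical axis and the summed CPM of epithelial, smooth muscle or stromal markers on the horizontal axis. The smooth muscle sums are apart between the labels, at 1440 to 2460 and 2670 to 5600 CPM, while the epithelial and stromal sums overlap. The mean log2 level of the smooth muscle markers, not shown, was not wholly apart (exact permutation p = 0.0571).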

How the data were processed

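The authors deposited 1 table of raw counts per library, with no normalization. Per the submitters' processing notes, HISAT2, SAMtools, HTSeq and StringTie and the builds mm10 and GRCm38 were used; roles, versions and counting options are not given in the sources used here. Per the labels' protocols, polyadenylated RNA was read as pairs of 150 bp from non-directional libraries. The 5 lines that name no gene were left out, and 27.0% to 29.1% of entries lay in genes. Under R 4.3.3, edgeR 4.0.16 was applied to the counts: filterByExpr kept 14598 of 23420 genes, TMM scaled the libraries, and glmQLFit (robust) with glmQLFTest compared the genotypes without covariates, adjusted by Benjamini-Hochberg over all tested genes at 0.05. The test was tested on simulated data. The SE is the log2 fold change divided by the root of F. DESeq2 1.42.0 and limma-voom 3.58.1 were alternatives. Exact permutation tests used log2(CPM + 0.5), and correlations log2 CPM with a prior count of 2. No 2 libraries agreed within sampling noise. The members, lists, markers and covariates were chosen with earlier results of these data known. Named were the 5 members, the 3 genes most like each tested member, Robo3, Robo4, both hairpins, Erbb3, and the 3 genes of the lists around the pathway with the smallest p in each direction at a mean of at least 1 CPM. Srgap2, Srgap3, Sox10, the GTPases and Nell genes were named after their values were seen. Lengths and sites came from GENCODE vM21 and were read with Python 3.11.15.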

Additional observations from a re-analysis of the deposited data

How the results depend on the processing

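Slit2 kept its direction in all alternatives run, with log2 fold changes of 0.61 to 1.40. It was called with DESeq2 (1.06), with the Schwann and nerve marker covariate (1.40, adjusted p = 0.0288 in edgeR) and without Erbb3d/d replicate 2 (1.19); leaving out 1 library gave 0.79 to 1.21. Slit3 ran from -0.03 to 0.34 without 1 library and turned sign with the smooth muscle (-0.40), stromal (-0.05), endothelial (-0.03) and Schwann and nerve (-0.11) covariates. Robo1 ran from -0.22 to 0.13 without 1 library and turned sign with the epithelial (0.13), smooth muscle (0.61), stromal (0.10), endothelial (0.07), pericyte (0.05) and Schwann and nerve (0.15) covariates. Robo2 ran from -0.46 to -0.06 without 1 library and turned sign with the epithelial (0.09) and smooth muscle (0.29) covariates. The Slit1 difference of 0.458 CPM ran from 0.308 to 0.648 CPM without 1 library; the tests over all genes leave it out. The stromal, endothelial, pericyte, mesothelial and Schwann covariates were added after seeing the data. In place of 0 genes higher and 0 lower, DESeq2 called 203 and 59, the endothelial covariate 195 and 97, the pericyte covariate 45 and 16, and the Schwann and nerve covariate 610 and 436; leaving out 1 library gave 0 to 143 higher and 0 to 116 lower, and only without Erbb3d/d replicate 2 was any gene called. The cause was not tested. Same-numbered libraries were not taken as pairs, because the labels give no pairing. The 4 correlations of their deviations were low but all positive (0.2212, 0.1590, 0.0959 and 0.1451), which cannot settle whether they are pairs. Erbb3f/f replicates 1 to 3 correlated best with their own number in Erbb3d/d and replicate 4 with replicate 3, which is a hint from the data and not the design. With the replicate block edgeR called 39 higher and 13 lower. Slit2, Slit3, Robo1 and Robo2 then had log2 fold changes of 1.01, 0.06, -0.06 and -0.32 without a call (edgeR adjusted p = 0.115 for Slit2). Depth limits Slit1 and Robo3, at 15 reads or fewer per library.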
